A study of Drosophila melanogaster with 4 samples.

Results

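The homeotic genes of Drosophila melanogaster sit in a pair of gene clusters on chromosome arm 3R, the Antennapedia complex (lab, pb, Dfd, Scr and Antp) and the bithorax complex (Ubx, abd-A and Abd-B). The regions described here are the H3K9acS10P clusters that overlapped the window 3R:2480000-2840000 for the Antennapedia complex (360 kb) or 3R:12470000-12810000 for the bithorax complex (340 kb), in coordinates of FlyBase release 5. A cluster is a stretch of the genome that the authors listed as significantly enriched. Of 6080 clusters in replicate 1, 11 met this rule (5 in the Antennapedia and 6 in the bithorax complex), as did 12 of 7282 in replicate 2 (6 and 6) and 11 of 9877 in the list for the replicate pair, called the combined list here (6 and 5). These were 0.785%, 0.733% and 0.537% of the clusters on 3R, in that order of lists. For scale, the windows of 360 kb and 340 kb lie on an arm of 27.9 Mb.

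The study used chromatin immunoprecipitation and sequencing (ChIP-seq) on nuclei of wild-type Oregon-R larvae at the third instar, with a new lot of an Abcam antibody against histone H3 that carries an acetylated lysine next to a phosphorylated serine (H3K9acS10P). There are 2 ChIP samples, numbered as replicates, and 2 input samples that carry the same numbers. All samples share the strain, genotype and stage, and no age, sex or tissue beyond larval nuclei is given. Whether the replicates are separate cultures is not labelled, and the spread between them may be technical. The files list regions and not expression, so the stage and tissue could not be checked against marker genes, and read depth is unknown. Chromatin from many cell types was mixed, so a mark in fewer cells and less of the mark per cell cannot be told apart.

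Homeotic genes encode homeodomain transcription factors that give each segment of the body its identity. Along the chromosome they lie largely in the order of the segments they specify. Outside the segments where they act they are kept silent by Polycomb group proteins and the methylation of another lysine of histone H3, and where they are active trithorax group proteins keep them so. In flies, the kinase JIL-1 is known to phosphorylate this serine of histone H3 in interphase, and acetylation of the neighbouring lysine is a mark of active promoters. In the Antennapedia complex, lab acts in the head and midgut, pb in the adult mouthparts, Dfd in the maxillary and mandibular segments, Scr in the labial and the first thoracic segment and in the salivary gland, and Antp in the thorax. In the bithorax complex, Ubx specifies the third thoracic segment with its haltere, abd-A the anterior abdomen and Abd-B the posterior abdomen.

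All 8 homeotic genes were found by symbol in RefSeq's gene table, which is on release 6 and was therefore used for gene order alone. From low to high coordinates the order on 3R was lab, pb, Dfd, Scr, Antp, Ubx, abd-A and Abd-B. Between lab and pb lie 8 protein-coding genes, Edg84A and the cuticle gene family Ccp84A among them. Between pb and Dfd lie zen2, CG34297, zen, bcd and Ama. No protein-coding gene lies between Dfd and Scr, and ftz, a pair-rule gene, lies between Scr and Antp. CG31275 and Glut3 lie between Ubx and abd-A, and MSAmiP between abd-A and Abd-B. The protein-coding gene before lab is agt, and the one before Ubx is modSP. After Antp comes CG46458, and after Abd-B comes VhaM9.7-d. No gene positions on release 5 were used here, so no cluster is assigned to any of the 8 genes or to these neighbours. The values below are given by position inside each window.

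H3K9acS10P clusters were sparse in both complexes. In the Antennapedia complex they covered 3.14% (replicate 1), 3.89% (replicate 2) and 4.65% (combined list) of the window, against 15.5%, 17.8% and 22.6% of the rest of 3R outside both complexes. In the bithorax complex they covered 4.09%, 4.50% and 4.47%, against the same values for the rest of 3R. The ratio to the rest of 3R was 0.211 ± 0.0112 (SD, n = 2) for the Antennapedia complex and 0.259 ± 0.00801 (SD, n = 2) for the bithorax complex. The complexes were below the rest of 3R in both replicates. The SD is between replicate lists of the same region and does not measure how regions of 3R vary. Ranks among 3R windows, given below, describe that variation. Each complex is 1 region, and with 2 replicates an exact two-sided sign-flip test cannot go below p = 0.5, so no test was made.

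**Figure D1:**
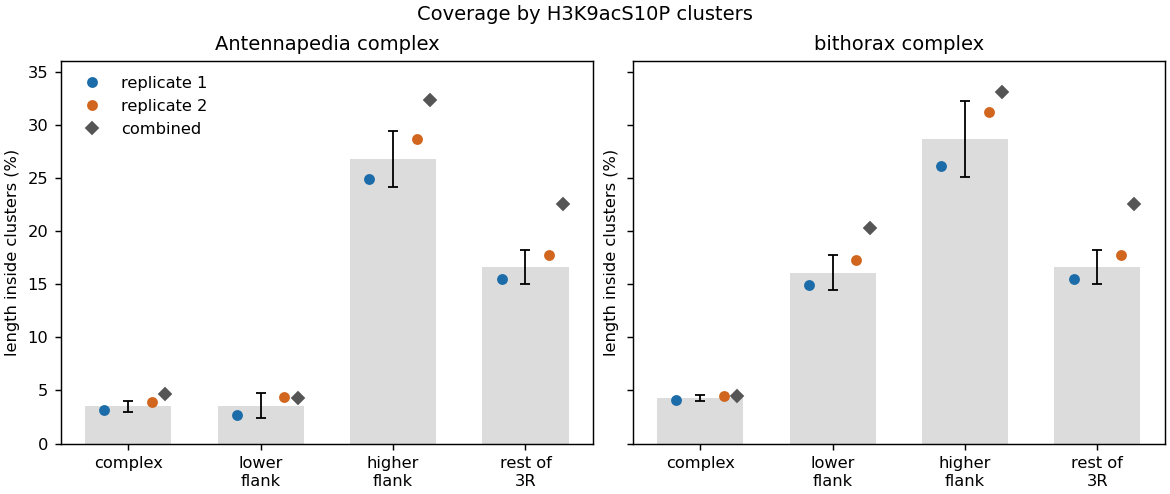
Percentage of length inside clusters for each complex, its 200 kb flanks at lower and higher coordinates and the rest of 3R; bars are the mean of the 2 replicates, error bars the SD (n = 2), points single lists. The bithorax complex lies below both of its flanks, whereas the Antennapedia complex at 3.51% on average is level with its lower flank at 3.55%.

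The flanks of 200 kb on each side differed between the complexes. For the bithorax complex, clusters took up 14.9% of the flank at lower coordinates in replicate 1 and 17.2% in replicate 2, and 26.1% and 31.2% of the flank at higher coordinates. The ratio of the bithorax complex to both flanks together was 0.193 ± 0.00958 (SD, n = 2). Both flanks were thus above the complex in each replicate, and in the combined list at 20.3% and 33.1% too.

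For the Antennapedia complex the ratio to both flanks was 0.231 ± 0.00595 (SD, n = 2), and it rested on one side. Clusters took up 24.9% (replicate 1), 28.6% (replicate 2) and 32.3% (combined list) of the flank at higher coordinates. The flank at lower coordinates was as sparse as the complex, at 2.71%, 4.40% and 4.28%, which gave a ratio of complex to lower flank of 1.16, 0.884 and 1.09. It held 2, 3 and 3 clusters, against 16, 20 and 20 in the higher flank. The low coverage therefore did not stop at the lower edge of the window. In the 100 kb next to that edge coverage was 2.04%, 2.06% and 2.13%. It came from the nearest cluster alone, of 2036 bp, 2061 bp and 2127 bp. The complex was 1.54, 1.89 and 2.18 times as densely covered. Without 10 kb at each end the complex was covered at 1.93%, 2.79% and 3.54%, below that flank value in replicate 1 alone. Over 400 kb on that side coverage was 12.7%, 12.0% and 15.4%, and the ratio was 0.247, 0.325 and 0.301.

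**Figure D2:**
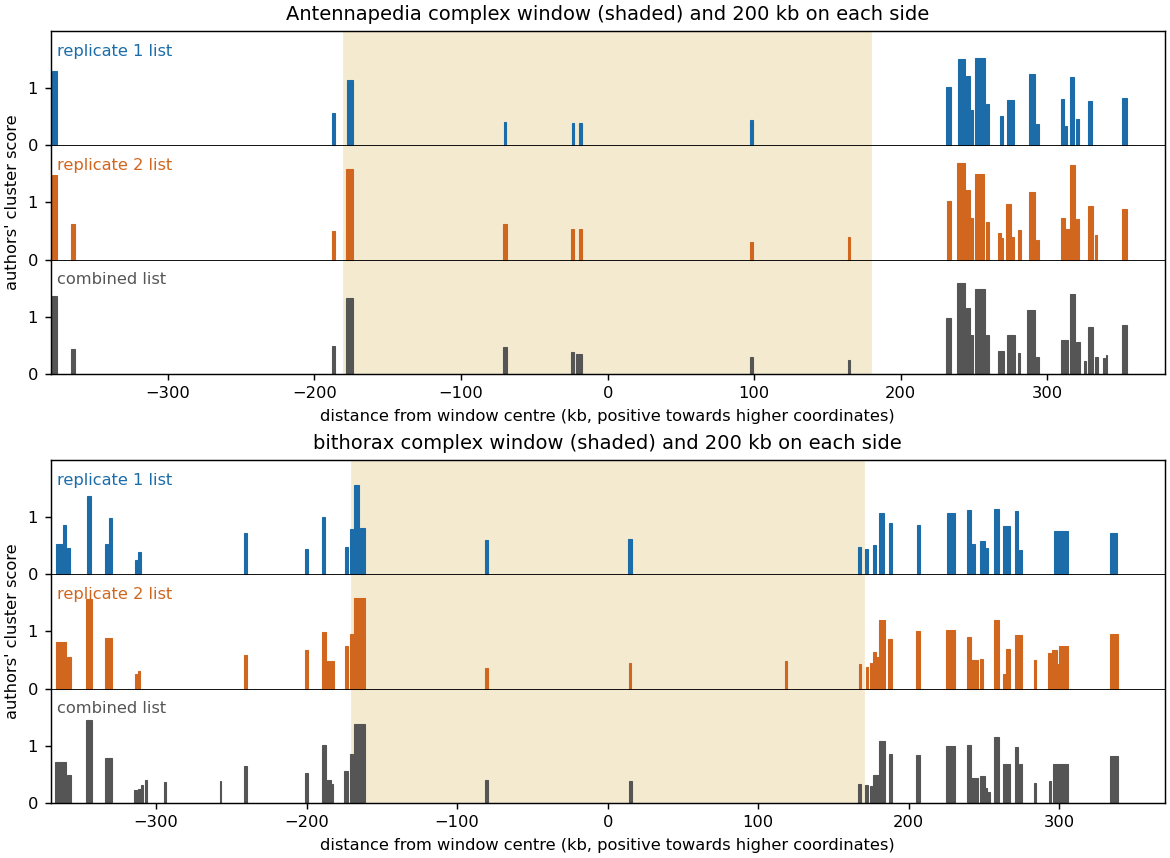
Clusters of each list in the 2 complex windows (shaded) and 200 kb on each side, placed by distance in kb from the window centre, with height equal to the authors' score and a separate baseline for each list. Few and mostly low clusters stand inside the windows, the highest within 10 kb of the lower edge, and above the windows, dense clusters begin 51.1 kb from the Antennapedia window and 0.938 kb from the bithorax window in the combined list.

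Set beside windows of their own size, both complexes were near the bottom of the arm. Windows were placed every 10 kb along 3R and left out where they touched either complex, which gave 2615 windows of 360 kb and 2621 of 340 kb. Fewer bases were covered than in the Antennapedia complex in 13 windows of replicate 1 (0.497%), 31 of replicate 2 (1.19%) and 24 of the combined list (0.918%). For the bithorax complex this held for 95 windows of replicate 1 (3.62%), 70 of replicate 2 (2.67%) and 12 of the combined list (0.458%). The median window of 360 kb was covered at 14.7%, 16.0% and 21.6%. These windows overlap each other and lie on 1 arm, so the shares are ranks and not p-values.

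The complexes were not the sparsest part of 3R. The lowest window of 360 kb in every list ran from 23790001 to 24150000, with 0.415% covered in replicate 1, 0.969% in replicate 2 and, for the combined list, 0.902%. The windows covered less than the Antennapedia complex formed 5 separate stretches of 3R in replicate 1, 7 in replicate 2 and, for the combined list, 3, and those below the bithorax complex formed 8, 8 and 4.

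**Figure D3:**
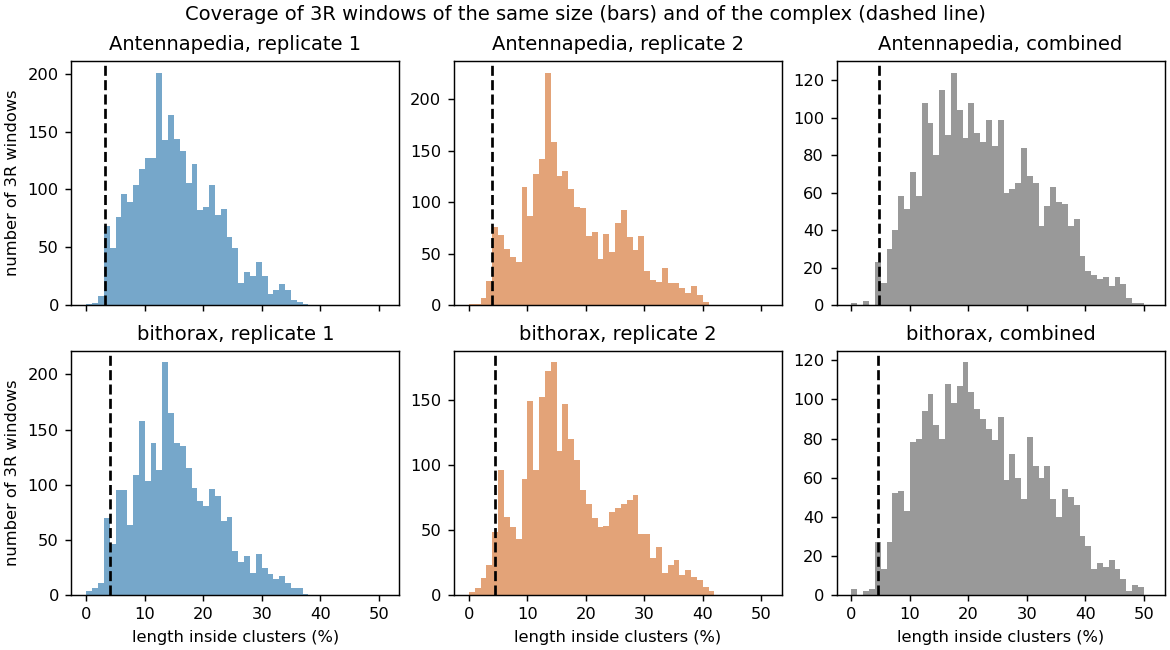
Numbers of 3R windows of the same size as each complex (vertical axis) by percentage of length inside clusters (horizontal axis), for the 3 lists, with the complex as a dashed line. The dashed line stands in the lower tail in each panel, between 3.14% and 4.65%.

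Counts of clusters were low in both complexes too. The Antennapedia complex held 5, 6 and 6 clusters in replicate 1, replicate 2 and the combined list, where the median 3R window of 360 kb held 18, 20 and 27. The bithorax complex held 6, 6 and 5, where the median window of 340 kb held 17, 19 and 25. Windows with as few clusters or fewer made up 2.94%, 3.33% and 0.994% for the Antennapedia complex. For the bithorax complex they made up 5.23%, 4.04% and 0.992%. These shares include ties, unlike those for coverage. In bins of 10 kb, 6 of 36 bins of the Antennapedia complex held part of a cluster in replicate 1 (16.7%, against 42.5% of all 3R bins), 7 in replicate 2 (19.4%, against 45.7%) and 7 in the combined list (19.4%, against 51.9%). In the bithorax complex the numbers out of 34 bins were 5 (14.7%), 6 (17.6%) and 5 (14.7%) for the same lists and backgrounds. Of the 40 bins in the flanks of the bithorax complex, 24, 25 and 28 held part of a cluster, and of those around the Antennapedia complex 14, 15 and 16. Neighbouring bins are not independent.

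In the Antennapedia complex the strongest cluster lay at the lower edge, the end at which the gene order begins with lab. Whether it lies at lab or at a gene before it, such as agt, was not determined. This cluster ran from 2481826 to 2486506 in the combined list. It scored 1.14 in replicate 1, 1.59 in replicate 2 and, for the combined list, 1.33. Those scores exceeded 79.7%, 94.7% and 91.9% of the 3R clusters of each list. The authors' score has no unit in the files, so it is used only to rank clusters within 1 list. At 4739 bp, 4501 bp and 4681 bp it was also the widest cluster of the complex in each list.

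The other Antennapedia clusters scored below the 3R median in both replicates. The next one ran from 2588932 to 2591120 in the combined list and scored 0.409 in replicate 1, 0.618 in replicate 2 and 0.470 there, above 7.92%, 48.8% and 54.9% of 3R clusters. A neighbouring pair followed near the middle of the window, from 2635106 to 2637220 and from 2638330 to 2642620, with scores of 0.394 and 0.400 in replicate 1 and 0.532 and 0.536 in replicate 2. Both of the pair were below the 3R median in all 3 lists. In the combined list the upper one began 2.25 kb or more before its counterparts in the replicates and spanned 4291 bp, wider than 81.8% of 3R clusters, against 1535 bp in replicate 1 and 2048 bp in replicate 2.

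Towards the Antp end of the complex the next cluster ranked below the preceding ones in replicate 2 and the combined list, but above all but the edge cluster in replicate 1. The cluster from 2757162 to 2759058 scored 0.442 in replicate 1, 0.302 in replicate 2 and, for the combined list, 0.285, above 12.8%, 2.56% and 12.5% of 3R clusters. The last one, from 2823764 to 2825318 in the combined list, was listed in replicate 2 (score 0.396) and the combined list (0.245) and had no counterpart in replicate 1. Whether replicate 1 lacked it or held it under the authors' threshold cannot be told apart, since depth is unknown.

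In the bithorax complex the strongest clusters again lay at the lower edge, the end at which the gene order begins with Ubx. Whether they lie at Ubx or at a gene before it, such as modSP, was not determined. A cluster from 12468606 to 12470902 straddled the edge, with 902 bp inside the window, and scored 0.801 in replicate 1, 0.951 in replicate 2 and, for the combined list, 0.854. Next to it, from 12471358 to 12478910, came the widest and highest cluster of the complex, which scored 1.59 in replicate 2 and 1.38 in the combined list and spanned 7584 bp and 7553 bp. In replicate 1 this region was split into a cluster from 12471507 to 12475124 with a score of 1.56 and another from 12475544 to 12478866 with a score of 0.808. The high part ranked above 95.9% of 3R clusters in replicate 1, and the undivided cluster above 94.7% in replicate 2.

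Past that edge the bithorax complex held 2 isolated clusters that all 3 lists shared. One ran from 12558222 to 12560858 in the combined list and scored 0.603 in replicate 1, 0.367 in replicate 2 and, for the combined list, 0.396. The other ran from 12653904 to 12655966 and scored 0.613, 0.448 and 0.376. Each of these scores was below the 3R median of its list, which was 0.729 in replicate 1, 0.629 in replicate 2 and, for the combined list, 0.419.

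A further bithorax cluster, from 12757929 to 12759328, was listed in replicate 2 alone with a score of 0.481, and the combined list did not hold it. At the upper edge, where the gene order ends with Abd-B, a cluster from 12806480 to 12808520 scored 0.489 in replicate 1, 0.427 in replicate 2 and, for the combined list, 0.328, above 21.3%, 14.4% and 25.8% of 3R clusters. The cluster near the upper edge of the bithorax window thus ranked low, and the highest one lay near the lower edge. These edges are set by the rule and need not be borders of the complex.

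**Figure D4:**
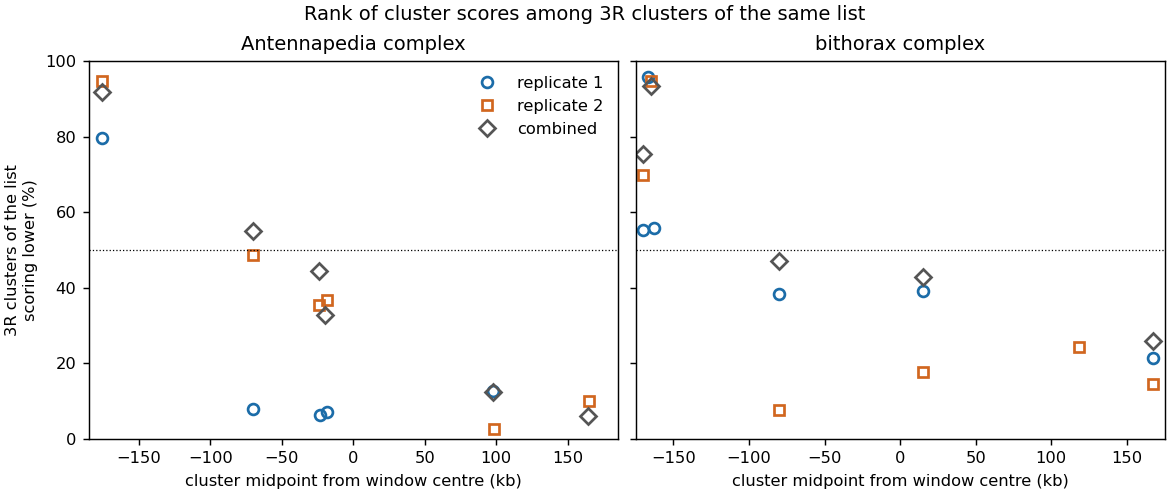
Percentage of 3R clusters of the same list that scored lower (vertical axis) for each cluster of the complexes, by distance of its midpoint from the window centre in kb (horizontal axis); the dotted line is the 3R median. Clusters at the lower edge of both windows stand above the line in each list, and of those farther in only 1, in the combined list of the Antennapedia complex, does.

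A cut at 10 kb from the window edges was chosen after the data were seen. It puts the high clusters of the lower edges on the edge side, so the counts here are only a description. Over both complexes, the clusters more than 10 kb from a window edge scored below the 3R median in 6 of 6 cases in replicate 1, 8 of 8 in replicate 2 and 6 of 7 in the combined list. Their median width was 1826 bp, 1893 bp and 2115 bp, against 2536 bp, 2411 bp and 2367 bp over all 3R clusters. Within 10 kb of an edge, 1 of 5 clusters in replicate 1, 1 of 4 in replicate 2 and 1 of 4 in the combined list scored below the 3R median, which is the cluster at the upper edge of the bithorax window in each list. Leaving out 10 kb at each end lowered coverage to 1.93% in replicate 1 and 2.79% in replicate 2 for the Antennapedia complex, and to 1.31% and 1.69% for the bithorax complex.

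The window edges are positions set by the rule, so the nearest clusters on either side were read as well. Below the Antennapedia window the nearest cluster ended 6.11 kb away in the combined list and scored 0.490, and above it the nearest began 51.1 kb away and scored 0.982. Below the bithorax window the nearest ended 2.49 kb away and scored 0.556, and above it one began 0.938 kb away and scored 0.306. The clusters at the lower edge of both windows were higher than those just outside it.

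Between these clusters lay long stretches without any. In the bithorax complex 150.5 kb were free of clusters in the combined list, from 12655967 to 12806479, which was the 13th longest of 2045 such stretches on 3R. In replicate 1 the corresponding stretch of 150.4 kb ranked 26th of 1400. In replicate 2 the extra cluster divided it into 102.2 kb and 47.5 kb. The next bithorax stretches of the combined list ran from 12560859 to 12653903 (93.0 kb) and from 12478911 to 12558221 (79.3 kb).

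In the Antennapedia complex the longest stretch inside the window ran from 2642621 to 2757161 in the combined list (114.5 kb, the 33rd longest on 3R), and the next from 2486507 to 2588931 (102.4 kb). Both were free of clusters in the replicates too, over 114.8 kb and 102.5 kb in replicate 1 and 114.7 kb and 102.6 kb in replicate 2. Another, from 2825319 to 2891059 (65.7 kb), ran on past the upper edge of the window. In replicate 1, which lacked the last cluster, the stretch over this edge began at 2758975 and measured 132.0 kb, the longest that touched the window in that list. The median 3R stretch was 4.72 kb (replicate 1), 3.75 kb (replicate 2) and 2.58 kb (combined list). The longest on 3R, outside both complexes, was 336.0 kb, 333.5 kb and 333.9 kb.

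**Figure D5:**
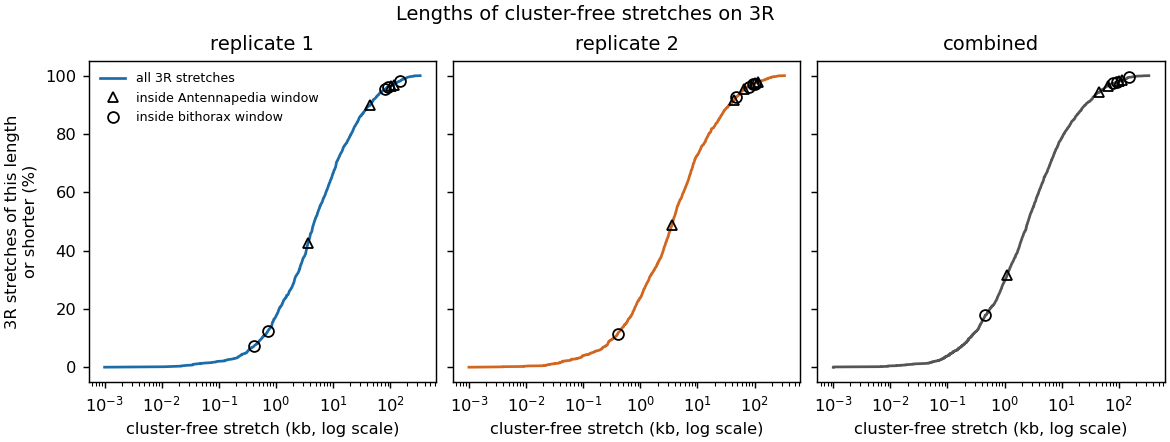
Cumulative percentage of cluster-free stretches on 3R (vertical axis) by length in kb on a log axis, for each list, with those wholly inside the complex windows as symbols. In each list the symbols divide into short stretches between neighbouring clusters and stretches of over 40 kb near the top of the curve.

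The replicates listed nearly the same regions of the complexes. All 11 replicate 1 clusters met a replicate 2 cluster by at least 1 bp (100%, 95% exact binomial interval 71.5 to 100), against 89.6% of the 1402 replicate 1 clusters on 3R. Of the 12 replicate 2 clusters, 10 met replicate 1 (83.3%, interval 51.6 to 97.9), against 77.5% of 1638 on 3R. The intervals cover counting of clusters only and include the 3R values. They treat clusters as independent, although in the bithorax complex 2 replicate 1 clusters met the same replicate 2 cluster. A difference from the arm was therefore not tested. Shared bases made up 73.7% of all bases listed in either replicate in the Antennapedia complex and 74.9% in the bithorax complex, against 66.6% on 3R.

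The combined list held no cluster in the complexes that both replicates lacked. Of its 11 clusters there, 10 were met by both replicates, 1 by replicate 2 alone and none by neither. On 3R as a whole 439 of its 2047 clusters (21.4%) were met by neither replicate. With only 11 clusters in the complexes, a difference from 3R was not tested. That list comes from the same pair of ChIP samples and is no independent replicate.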

How the data were processed

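Per the submitters' processing notes, Bowtie 0.12.7 aligned the reads. Per the file headers, positions are those of FlyBase release 5. The authors deposited 1 list of enriched regions for each of 2 ChIP samples and 1 for the pair, each region with a start, an end and a score of unstated scale. Not given in the sources used here are the caller, its threshold, the use of input and how the replicates were combined. Values of the 2 input samples were not used. Regions typed as depleted, none of them on 3R, were left out.

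From these lists, coverage was computed as the percentage of a window's length inside merged clusters, with gaps and repeats left in. Windows followed the rule for the complexes, flanks were 200 kb, and 3R windows were placed every 10 kb. Every cluster in the windows was named by position, and the 3 longest cluster-free stretches of the combined list. Mean and SD are over the 2 replicates. No p-value was computed. The complexes, tests and lists were chosen with earlier results of these data known. The planned counts for Polycomb and trithorax group genes need gene positions on release 5 and were not run. Coverage and overlap functions were checked on simulated intervals. Computation used Python 3.11.15, numpy 2.4.6, pandas 2.3.3, scipy 1.17.1 and matplotlib 3.10.9. Depth is unknown.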

Additional observations from a re-analysis of the deposited data

How the results depend on the processing

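The single flanks, the windows without 10 kb at each end and the windows on all 5 large arms were chosen after the data were seen. No paired analysis was possible because input samples have no list here and no test was made. Coverage of the Antennapedia complex relative to its flanks was 0.231, and 0.227 to 0.235 with one replicate left out. It was 0.254 in the combined list, 0.299 in clusters per Mb, 0.118 in the higher-scoring 50%, 0.223 with flanks of 100 kb, 0.257 with 400 kb, 0.211 against the rest of 3R, 0.131 against the higher flank and 0.154 without the ends. Against the lower flank alone it was 1.02 ± 0.192 (SD, n = 2), with the replicates on opposite sides of 1 (1.16 and 0.884), so no direction held. For the bithorax complex the value was 0.193, and 0.186 to 0.199 with one replicate left out. It was 0.168 in the combined list, 0.176 in the higher-scoring 50%, 0.179 and 0.232 with flanks of 100 and 400 kb, 0.259 against the rest of 3R, 0.267 and 0.151 against the lower and higher flank, and 0.0669 without the ends, which hold its widest cluster.

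The share of 3R windows covered less than the Antennapedia complex averaged 0.841% over the replicates (0.497% to 1.19% with one left out). It was 1.89% in clusters met by the other replicate, 1.78% in clusters per Mb, 3.39% over all 5 large arms and 0.343% without the ends. With windows laid end to end, which are far fewer and give coarser shares, it was 0%, and 2.56% for the bithorax complex. For the bithorax complex it averaged 3.15% (2.67% to 3.62% with one left out), with 0.458% in the combined list, 4.52% in the higher-scoring 50%, 4.64% in clusters met by the other replicate, 1.85% in clusters per Mb, 5.42% over the 5 arms and 0.343% without the ends. The share of replicate clusters met by the other was 91.7% in the bithorax complex and 66.7% at a reciprocal overlap of 50%. At that overlap the 7584 bp cluster of replicate 2 and its parts of 3618 bp and 3323 bp in replicate 1 no longer met. In the Antennapedia complex the share was 90.9% under both rules. The causes of the other shifts were not tested. Depth is unknown, so a region listed in 1 replicate may lie under the threshold of the other.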
